A study of Mus musculus with 2 samples.

Results

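Potassium channel genes were described in single cells of the mouse dentate gyrus, the part of the hippocampus in which granule neurons go on being born after birth. The members were the genes whose symbol begins with Kcn, without Kcnq1ot1 and without symbols that end in os, which gave 96 of 32285 genes. Of these, 94 were channel or subunit genes and 2 were the opposite-strand RNAs Kcnmb4os1 and Kcnmb4os2, which the rule leaves in. The dentate gyrus was taken at postnatal day 5 from wild type mice (control, 1 library) and from Setdb1_cKO mice (1 library), in which Setdb1, the gene of a histone H3 lysine methyltransferase, is conditionally deleted. The labels give no other treatment and do not name the Cre line, the cells it acts in, the number of animals or their sex. With 1 library per genotype there is no replicate, so ratios between the libraries are given with 95% intervals that cover counting error only, and no p-value is given. A gene was called measured in a cell class when its unique molecular identifiers (UMIs, counted molecules) summed to at least 30 over both libraries.

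Potassium channels let potassium leave or enter a cell along its gradient and so set the resting voltage and end each action potential. Voltage-gated channels open when the cell depolarises, calcium-activated channels (BK and SK) open when calcium rises, inward rectifiers carry current best near rest and in astrocytes help clear potassium released by neurons, and two-pore-domain channels form the resting leak. Auxiliary subunits change the gating or the surface level of the pore subunits. Newborn granule cells start with few channels and a high input resistance and acquire more as they mature.

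Kept cells numbered 10801 in the control and 9372 in the Setdb1_cKO library, with medians of 5930 and 6974.5 UMIs per cell. Cells were put into 18 classes by marker genes that include no potassium channel gene, and 9.51% and 12.3% of cells stayed unassigned. Fewer cells of a type and less RNA per cell cannot be told apart from class totals, so only levels within a class are compared, in CPM, the share of a gene among all UMIs of the class in that library on the usual scale for sequencing counts. Setdb1 itself was lower in the Setdb1_cKO library in radial glia (54.3 and 18.6 CPM, ratio 0.342, interval 0.282 to 0.412), astrocytes (40.0 and 13.3 CPM) and pyramidal or mossy neurons (44.1 and 13.5 CPM). In oligodendrocyte progenitors Setdb1 was at 54.9 and 56.9 CPM (ratio 1.04, interval 0.718 to 1.48), and endothelial cells (1.22) and fibroblasts also gave ratios above 1, with intervals that include 1. The 2 libraries differed in sex: late neuroblasts held Xist at 0.390 and 1557 CPM and Y-linked Ddx3y at 51.6 and 0 CPM (control, then Setdb1_cKO), so sex and genotype cannot be told apart. Kcnd1 and Kcne1l are on chromosome X. In a joint clustering without the potassium channel genes, different clusters held most of a class in each library: cluster 6 held 67.4% of control radial glia and cluster 7 held 81.5% of Setdb1_cKO radial glia, cluster 0 held 73.0% of control late neuroblasts and cluster 2 held 50.4% of the Setdb1_cKO ones. Cluster 5 held 71.4% of the control cells of the early neuroblast gate and cluster 3 held 84.0% of the Setdb1_cKO ones. The leading genes of the early neuroblast gate (Tac2, Mfap4, Nhlh1, Scrt2, Eomes) include 3 markers of intermediate progenitors and 2 of its own, so it is treated as a gate and not as a cell type. Astrocytes fell mostly into 1 cluster in both libraries (77.2% and 75.8% of them in cluster 1), as did pyramidal or mossy neurons (97.0% and 95.1% in cluster 11). Granule neurons fell mostly into cluster 4 (81.25% and 97.7%), which its markers name late neuroblasts. The granule neuron class thus rests on the marker gate and was not a cluster of its own. The libraries shared 68 barcodes, and leaving these cells out moved none of the 35 gene and class ratios and 14 member counts recomputed for it past its counting interval or by 1.5-fold.

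Of the 96 members, 73 were measured in at least 1 class and 64 in at least 1 of the 7 classes from radial glia to neurons that are compared below. Late neuroblasts (2778 and 2670 cells) had the most measured members, 55, and intermediate progenitors (704 and 425 cells) had 24. A class with more UMIs passes the limit for more genes. Over all genes, 13067 were measured in late neuroblasts and 11007 in intermediate progenitors. Summed over all members, levels in control cells ran from 142 CPM in border macrophages and 195 CPM in microglia through 444 CPM in intermediate progenitors, 838 CPM in the early neuroblast gate and 1374 CPM in late neuroblasts to 2089 CPM in Cajal-Retzius cells and 2330 CPM in granule neurons. The order was close to this in the Setdb1_cKO library, where granule neurons held 1769 CPM and Cajal-Retzius cells 1819 CPM. Member totals were thus higher in each later class from intermediate progenitors to granule neurons in both libraries, while the 16 granule neurons of the control library give the least exact of these values (2126 to 2548 CPM). Microglia serve as a level for free RNA: Kcnk1, the gene with the most UMIs in the lineage, read 10.2 and 5.36 CPM there.

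**Figure D1:**
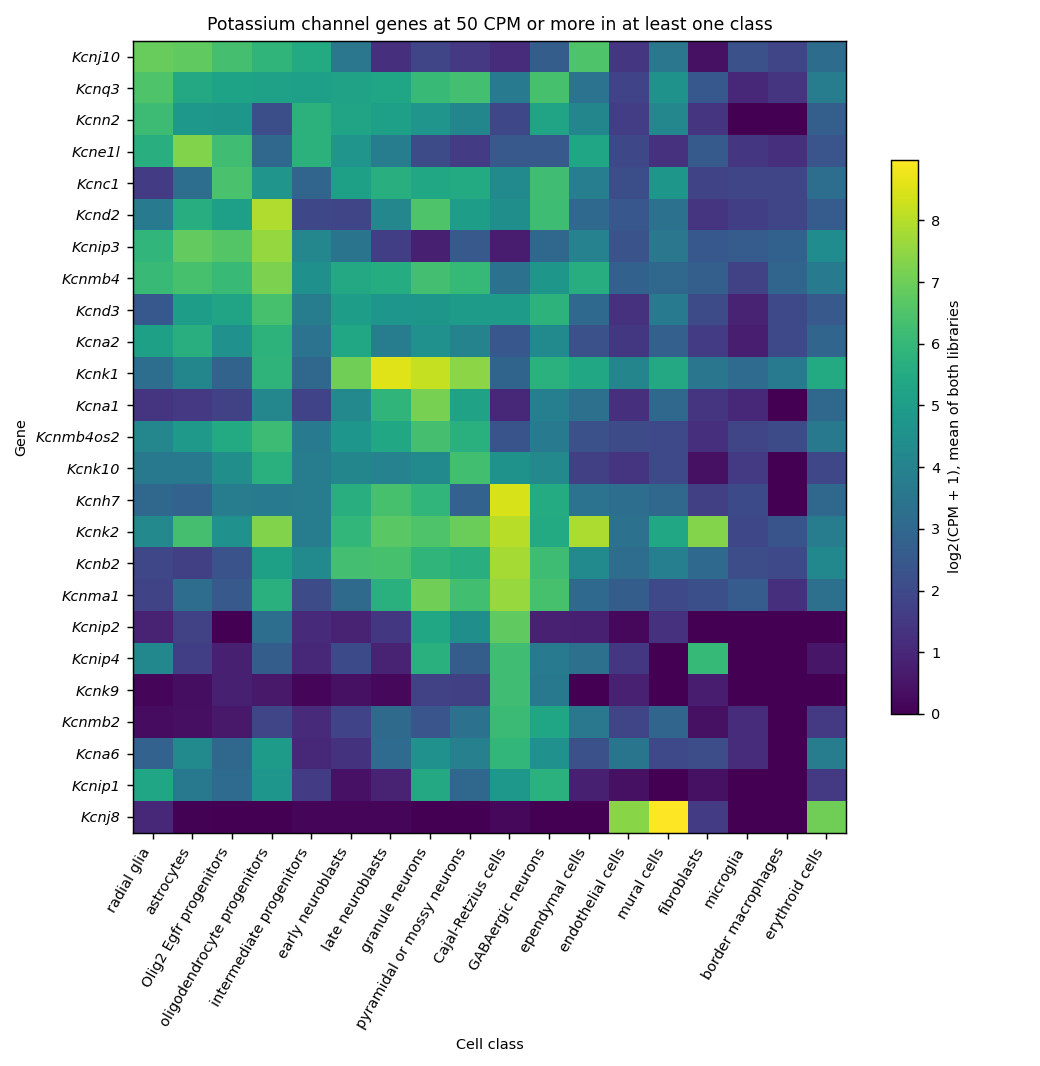
Heat map of 25 of the 28 potassium channel genes that reached 50 CPM in at least 1 class; rows are genes, columns the 18 cell classes, and colour is log2(CPM + 1) of the mean of both libraries. Kcnk1 is brightest in late neuroblasts (369 CPM) and granule neurons (292 CPM), Kcnj8 in mural cells (506 CPM), and Kcnh7 in Cajal-Retzius cells (345 CPM).

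Kcnk1 (chromosome 8, 125995170 to 126030685, mm10) encodes a two-pore-domain leak subunit that granule cells are known for. Its level was 145 and 114 CPM in the early neuroblast gate, 411 and 327 CPM in late neuroblasts, 296 and 289 CPM in granule neurons and 164 and 178 CPM in pyramidal or mossy neurons (control first, as in every pair here). Late neuroblasts and granule neurons were separated in each library by intervals that do not overlap (control 401 to 421 against 226 to 380 CPM). Kcnk1 was lower in the Setdb1_cKO library in late neuroblasts by a ratio of 0.796 (0.768 to 0.825), short of 1.5-fold. Over 36 class and library values, the genes whose log2(CPM + 1) was most like that of Kcnk1 were Neurod2 (Pearson r 0.912, itself one of the gate markers), Gm26871 (0.898) and Rbfox1 (0.896). Among members the closest were Kcna1 (0.887), Kcnh1 (0.752) and Kcnh8 (0.719). These values share libraries and depth, and they are given as a description.

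Granule neurons led for Kcna1, a delayed-rectifier subunit of axons (170 and 110 CPM). Cajal-Retzius cells, early-born neurons that secrete reelin, led for Kcnh7, an ERG-type subunit (369 and 321 CPM), for Kcnb2 (253 and 185 CPM) and for the acid-sensitive leak subunit Kcnk9 (79.1 and 67.7 CPM). Kcnk9 read 3.14 and 19.6 CPM in the next class, GABAergic neurons. Oligodendrocyte progenitors led for Kcnd2, an A-type subunit (253 and 227 CPM), for its partner Kcnip3 (202 and 176 CPM) and for Kcnmb4 (149 and 148 CPM). Of 81 members with an order, 60 had the same leading class in both libraries, and 15 had a leading class whose intervals lay apart from those of the next class in both. Of the leads named here and below, those of Kcnmb4, Kcnn2, Kcnk10, Kcnc1 and Kcnip1 did not lie apart in both. By point value alone, the leading class was granule neurons for 15 members, Cajal-Retzius cells for 14, and GABAergic neurons and mural cells for 8 each. No UMI limit per class was set for this tally, so a small class can lead on few UMIs. Kcnd1 and Kcnh2, for example, led in mural cells (56 and 20 cells) at a mean of 5.08 CPM. The tally therefore does not rank the classes.

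Glia shared the inward rectifier Kcnj10, the main potassium-clearing channel of astrocytes. It was at 119 and 120 CPM in radial glia, 127 and 92.4 CPM in astrocytes, 120 and 62.0 CPM in ependymal cells and 84.4 and 76.9 CPM in Olig2 Egfr progenitors, and control radial glia, astrocytes and ependymal cells did not differ beyond their intervals. Its partner Kcnj16 was at 37.2 and 26.2 CPM in astrocytes. Astrocytes led for Kcne1l, a single-span auxiliary subunit (180 and 126 CPM), and radial glia for Kcnn2, an SK subunit (67.2 and 72.3 CPM). Mural cells held Kcnj8, the pore subunit of the vascular channel that closes on ATP, at 605 and 406 CPM, beside its regulatory subunit Abcc9 at 541 and 457 CPM. Endothelial cells held Kcnj8 at 175 and 157 CPM. Erythroid cells held Kcnj8 at 173 and 87.4 CPM, and the endothelial genes Kdr and Flt1 are among the 10 genes that lead that class. Microglia led for Kcnk13, a leak subunit known for holding their resting voltage, at 41.8 and 37.5 CPM. Fibroblasts held Kcnk2 at 168 and 149 CPM and Kcnip4 at 57.6 and 69.7 CPM.

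Kcnmb4 and Kcnk2 were the 2 members that were at least 1.5-fold lower in the Setdb1_cKO library in at least 4 of the 7 compared classes, and no member was higher in as many. Across the alternative settings, the Kcnmb4 ratio reached 0.687 in the early neuroblast gate. That of Kcnk2 reached 0.705 in intermediate progenitors and 0.917 in radial glia. These values are short of 1.5-fold, so the number of classes depends on the settings. Kcnmb4 (chromosome 10, 116417861 to 116473878, minus strand) encodes the neuronal beta subunit of the BK channel, which slows its gating. Its level was 123 and 41.4 CPM in astrocytes (ratio 0.338, 0.295 to 0.386), 90.9 and 43.6 CPM in radial glia (0.480, 0.422 to 0.546), 29.8 and 13.8 CPM in intermediate progenitors (0.461) and 50.4 and 33.3 CPM in the early neuroblast gate (0.660). The ratio was nearer to 1 in late neuroblasts (52.7 and 39.0 CPM, 0.739) and pyramidal or mossy neurons (71.4 and 55.7 CPM, 0.780). In granule neurons Kcnmb4 read 77.5 and 78.6 CPM, with a wide interval (0.605 to 1.82). Outside these 7 classes it was at 99.8 and 32.3 CPM in Olig2 Egfr progenitors (0.324, 0.240 to 0.430) and at 149 and 148 CPM in oligodendrocyte progenitors (0.993, 0.796 to 1.24). The intervals of these 2 classes do not overlap. After thinning each cell to 2000 UMIs, Kcnmb4 had a UMI in 20.6% of control and 7.76% of Setdb1_cKO astrocytes, against 0.694% and 0.556% of microglia. Without thinning the shares were 53.8% and 27.5% of astrocytes, whose median depths were 7118.5 and 8645 UMIs, and 1.26% and 2.02% of microglia, with medians of 5930 and 7402.5 UMIs.

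Kcnmb4os2, a noncoding RNA on the opposite strand, overlaps Kcnmb4 by 716 bases, which lie at the 5′ ends of both genes. The libraries were made with 3′ chemistry, and no source used here states whether counting used strand. Whether reads from the shared stretch were split between the pair was not tested. Kcnmb4os2 was at 33.8 and 21.8 CPM in astrocytes (0.646, 0.527 to 0.788), 21.6 and 12.3 CPM in radial glia (0.570) and 17.2 and 7.0 CPM in intermediate progenitors (0.407). In late neuroblasts it was at 43.1 and 36.7 CPM (0.853).

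Kcnk2 (chromosome 1, 189207930 to 189402273, minus strand) encodes a two-pore-domain channel opened by stretch, warmth and fatty acids. It was at 84.3 and 36.1 CPM in the early neuroblast gate (ratio 0.428, 0.372 to 0.493), 24.4 and 11.0 CPM in radial glia (0.452, 0.348 to 0.583), 107 and 53.6 CPM in astrocytes (0.502, 0.443 to 0.567) and 15.8 and 10.1 CPM in intermediate progenitors (0.640, 0.434 to 0.930). In Olig2 Egfr progenitors it was at 32.6 and 11.8 CPM (0.361) and in ependymal cells, from 18 and 69 cells, at 354 and 114 CPM (0.322, 0.221 to 0.473). Late neuroblasts held 115 and 88.8 CPM (0.771) and Cajal-Retzius cells 293 and 229 CPM (0.781). Pyramidal or mossy neurons (128 and 121 CPM, 0.845 to 1.06), fibroblasts (0.741 to 1.07), oligodendrocyte progenitors (0.696 to 1.07) and granule neurons (0.714 to 2.05) gave intervals that include 1. With the stricter cell filter, the radial glia ratio of Kcnk2 was 0.917 (0.568 to 1.45) from 567 and 220 cells.

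**Figure D2:**
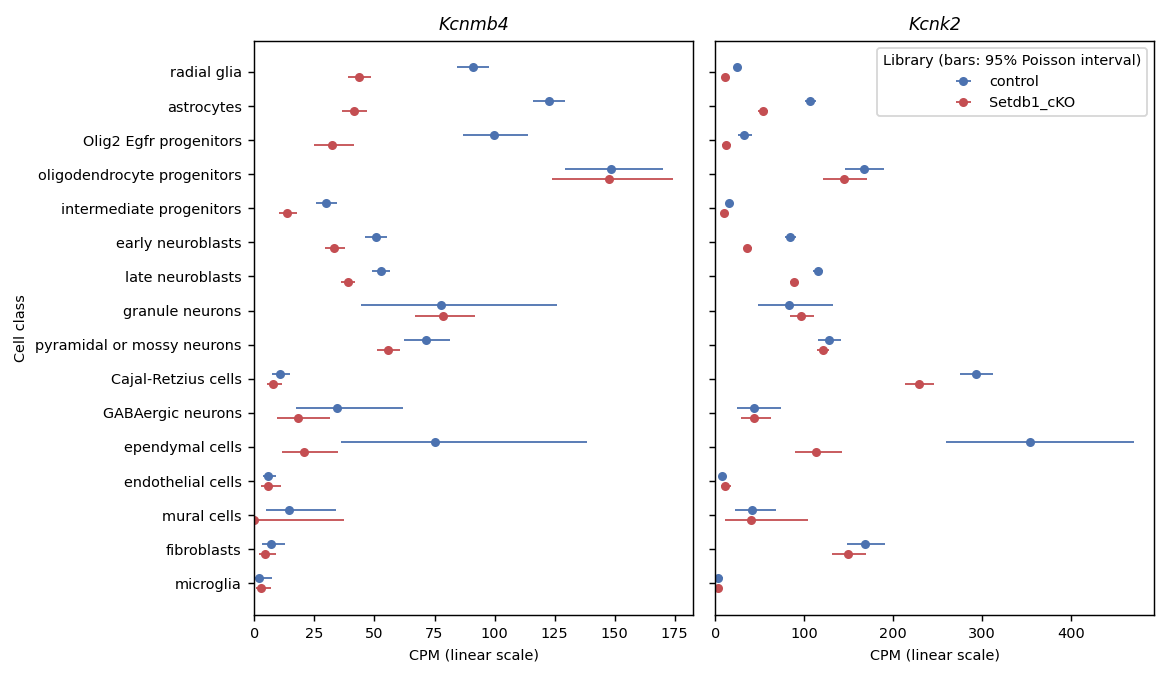
Level in CPM (linear axis) of Kcnmb4 (left) and Kcnk2 (right) in 16 cell classes; blue points are the control library, red points the Setdb1_cKO library, and bars are 95% Poisson intervals of 1 library each. In astrocytes Kcnmb4 sits at 123 and 41.4 CPM and Kcnk2 at 107 and 53.6 CPM, while in oligodendrocyte progenitors the points of Kcnmb4 nearly coincide.

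The 250 bases before the transcription start are shown for Kcnk2, which was lower in several classes, and for Kcnd2. Kcnd2 was higher in late neuroblasts and lower in radial glia (0.486). The pair was picked because it differs in base composition, so it does not stand for lower and higher members. Sequences are RefSeq's for build GRCm38.p6, 5′ to 3′ on the gene's strand, with the GC box GGGCGG (either strand) in capitals; 70 of the 96 members had a promoter in that table. The Kcnk2 window is the most upstream of 4 in the table, on the minus strand at chr1:189402274-189402523, and the Kcnd2 window lies on the plus strand at chr6:21215096-21215345.
Kcnk2: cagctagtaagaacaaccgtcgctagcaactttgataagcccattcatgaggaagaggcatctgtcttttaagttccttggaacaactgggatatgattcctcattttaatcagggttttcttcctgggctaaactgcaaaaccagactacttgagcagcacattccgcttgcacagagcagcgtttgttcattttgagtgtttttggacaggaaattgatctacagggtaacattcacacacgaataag
Kcnd2: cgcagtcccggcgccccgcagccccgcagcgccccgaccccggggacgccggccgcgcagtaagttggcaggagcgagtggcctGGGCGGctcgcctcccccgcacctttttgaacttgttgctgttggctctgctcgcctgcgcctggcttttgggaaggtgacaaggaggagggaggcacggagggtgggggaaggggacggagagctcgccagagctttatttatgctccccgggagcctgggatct
The Kcnk2 window holds 5 CpG dinucleotides (55.6% of 32851 promoters hold as many or more), no GC box and 2 E-boxes (CANNTG, either strand). The Kcnd2 window holds 22 CpG dinucleotides (14.8% hold as many or more), 1 GC box and no E-box. For Kcnmb4, also lower in several classes, the window is not printed because all 250 bases are annotated as untranslated region. It holds 43 CpG dinucleotides (0.712% hold as many or more), 4 GC boxes and no E-box, unlike the Kcnk2 window. Over all promoters, 32.7% hold a GC box and 66.2% an E-box in a window of this length. None of these windows holds a TATA box (TATAAA, in 12.4% of promoters) or the RE1 half-site TTCAGCACC (0.301%). These counts describe the letters, and no binding or chromatin was measured.

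Counts of members past 1.5-fold were read against the same count over all measured genes of the class. In radial glia 6 of 35 measured members were higher and 8 lower in the Setdb1_cKO library (6.58% and 8.34% of all 12486 measured genes), and in astrocytes 5 of 36 were higher and 6 lower (6.47% and 5.89% of all genes). In intermediate progenitors 3 of 24 were higher and 5 lower (5.09% and 7.58%). In the early neuroblast gate 9 of 38 were higher and 4 lower (5.11% and 9.08%), and in late neuroblasts 16 of 55 were higher and 5 lower (7.64% and 6.02%). Of 31 measured members in granule neurons, 2 were higher and 13 lower (18.7% and 18.3%, shares that rest on 16 control cells), and in pyramidal or mossy neurons 2 of 49 were higher and 13 lower (7.15% and 10.4%). Where the interval also had to lie clear of 1, the counts were 4 higher and 6 lower in radial glia (5.3% and 6.93% of all genes), 4 and 5 in astrocytes (5.03% and 4.25%), 1 and 5 in intermediate progenitors (3.82% and 5.11%) and 8 and 4 in the early neuroblast gate (4.22% and 7.21%). The same counts were 13 and 5 in late neuroblasts (6.37% and 4.78%), 0 and 10 in granule neurons (4.21% and 7.8%) and 1 and 10 in pyramidal or mossy neurons (4.72% and 8.07%). At 1.5-fold alone, the share of members was above that of all genes in both directions in radial glia (17.1% higher, 22.9% lower), astrocytes (13.9%, 16.7%) and intermediate progenitors (12.5%, 20.8%). In the early neuroblast gate (23.7%, 10.5%) and late neuroblasts (29.1%, 9.09%) it was above that of all genes for higher members. For lower members there, 4 of 38 and 5 of 55, it was near that of all genes (9.08% and 6.02%) and is not read as a result. In granule neurons (6.45%, 41.9%) and pyramidal or mossy neurons (4.08%, 26.5%) the share of members was above that of all genes for lower members and below it for higher ones. The share over all genes was not matched for level, and counting error near the 30 UMI limit can pass 1.5-fold by itself. With the interval required, higher members of intermediate progenitors were 4.17%, close to the 3.82% of all genes. At a limit of 100 UMIs, 1 member was higher in radial glia, 1 in astrocytes and 0 in intermediate progenitors. The splits in the neuroblasts depended on the settings too. With the class taken from clusters, 9 of 53 were higher and 12 lower in the early neuroblasts and 8 of 56 higher and 7 lower in the late ones. At a limit of 100 UMIs, 1 of 22 was higher and 4 lower in the early neuroblast gate and 9 of 39 higher and 4 lower in late neuroblasts. For counts at other settings or in subsets of cells, here and below, the shares over all genes given above do not apply. Such counts are not read as results about the members. The median log2 ratio of the measured members was 0.24 in the early neuroblast gate and 0.18 in late neuroblasts (all genes -0.06 and -0.04), -0.35 in granule neurons and -0.34 in pyramidal or mossy neurons (all genes -0.11 and -0.16), and -0.20 in astrocytes (all genes -0.01). In radial glia it was -0.02 (all genes -0.08). Scaling each class by its median gene moved all genes of pyramidal or mossy neurons by 0.15 on the log2 scale, and the split there became 5 higher and 12 lower; in radial glia the split became 7 higher and 6 lower, and in the early neuroblast gate 11 higher and 3 lower.

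**Figure D3:**
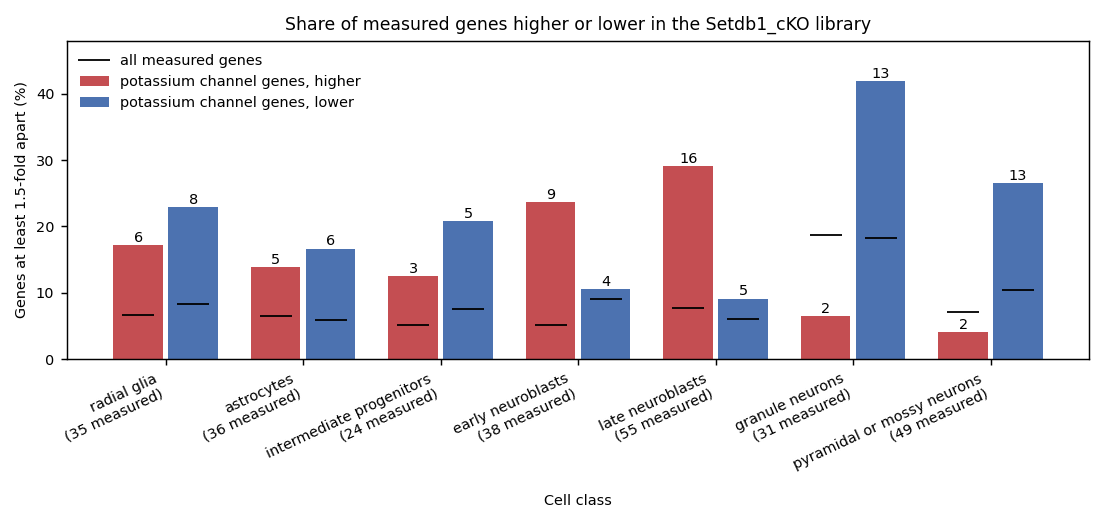
Share of measured potassium channel genes at least 1.5-fold higher (red bars) or lower (blue bars) in the Setdb1_cKO library, in percent, for each of the 7 classes, with the number of genes above each bar; black marks give the same share over all measured genes. The red bar is the taller one in the early neuroblast gate and late neuroblasts, and the blue bar in the other 5 classes, most in granule neurons (13 of 31).

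In radial glia the lower members with at least 20 CPM were Kcnmb4, Kcnk2 and Kcnmb4os2, described above. Kcnd2 was lower at a lesser level (16.0 and 7.77 CPM, 0.486), as was the leak subunit Kcnk10 (14.8 and 7.77 CPM, 0.525). These and the genes named next in radial glia and astrocytes fall outside the naming rule and were picked after their values were seen. Higher members were all at low levels, with the EAG-type Kcnh5 at 2.25 and 5.89 CPM (2.62, 1.51 to 4.72), Kcnj3 at 0.948 and 2.76 CPM and Kcnt2 at 5.81 and 8.90 CPM. Kcnip3 was at 48.8 and 70.2 CPM (1.44). The high-level members Kcnj10 (1.01), Kcnq3 (90.2 and 90.1 CPM) and Kcnn2 (1.08) differed by less than 1.1-fold. The list of 8 cycling genes summed to 2351 and 1328 CPM in radial glia (all 8 above 0). In the 399 and 260 cells with no UMI of it, the Kcnmb4 ratio was 0.344 and the Kcnk2 ratio 0.401. The counts there became 0 higher and 5 lower of 20. A cell with few UMIs also tends to hold none of the list, so this subset cannot separate cycling from depth. The part of the cycling genes was not tested. Other lists also differed in radial glia: the 9 oligodendrocyte progenitor markers summed to 64.6 and 102 CPM, the 9 late neuroblast markers to 526 and 351 CPM, the 8 early neuroblast markers to 421 and 291 CPM and the 8 fibroblast markers to 61.7 and 17.9 CPM. Their part was not tested.

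In astrocytes Kcnk1 joined the lower members at 21.1 and 11.5 CPM (0.546, 0.413 to 0.714), and Kcnma1, the BK pore subunit, was at 10.0 and 6.64 CPM (0.664, 0.453 to 0.957). In microglia, used above as a level for free RNA, Kcnk1 had a mean of 7.78 CPM and was also lower in the Setdb1_cKO library. The part of free RNA in the astrocyte values of Kcnk1 was not tested. The astrocyte rectifiers Kcnj10 (0.727, 0.659 to 0.802) and Kcnj16 (0.706, 0.585 to 0.848) and the auxiliary Kcne1l (0.700, 0.644 to 0.760) were lower by less than 1.5-fold, with intervals below 1. Higher members included Kcnh5 (1.04 and 4.42 CPM), Kcnt2 (1.89 and 4.42 CPM) and Kcnk10 (8.77 and 13.7 CPM, 1.57). Kcnk10 thus lay on opposite sides of 1 in astrocytes and radial glia. The 9 oligodendrocyte progenitor markers summed to 417 and 233 CPM (ratio 0.558; none at 0 in control, 1 at 0 in Setdb1_cKO), and most astrocytes held a UMI of them. In the 243 and 178 astrocytes with none, the Kcnmb4 ratio was 0.313, the Kcnk2 ratio 0.509, that of Kcnmb4os2 0.409 and that of Kcnk1 0.228. Holding none of these markers also depends on the depth of a cell, so their part was not tested by this subset. The 7 markers of Olig2 Egfr progenitors summed to 815 and 510 CPM in astrocytes, the 8 cycling genes to 1208 and 834 CPM, and immediate early and heat shock genes to 3242 and 4005 CPM; their part was not tested.

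In intermediate progenitors Kcnmb4 was the only lower member with at least 20 CPM. Kcnn2 (56.6 and 50.2 CPM, 0.887), Kcne1l (61.9 and 46.4 CPM, 0.749) and Kcnj10 (40.6 and 48 CPM, 1.18) were less than 1.5-fold apart. Outside the naming rule, Kcnab1, a cytoplasmic beta subunit, was at 7.08 and 3.14 CPM.

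In the early neuroblast gate Kcnq3 was lower beside Kcnk2 and Kcnmb4. Kcnq3 encodes a subunit of the M-current, which damps repetitive firing, and was at 44.4 and 25.9 CPM (0.583, 0.489 to 0.694). It was lower also in late neuroblasts (48.5 and 28.5 CPM, 0.588, 0.524 to 0.659) and in pyramidal or mossy neurons (100 and 56.8 CPM, 0.568, 0.494 to 0.654), while radial glia gave a ratio with an interval of 0.901 to 1.11 and oligodendrocyte progenitors 24.6 and 43.2 CPM (1.75, 1.09 to 2.84). The higher members of the early neuroblast gate lie below 20 CPM and outside the naming rule. Among calcium-activated channels, Kcnma1 was at 4.10 and 11.1 CPM (2.72, 1.83 to 4.11) and the BK subunit Kcnmb2 at 1.29 and 3.62 CPM. Among voltage-gated channels, the EAG-type Kcnh1 was at 1.40 and 3.62 CPM and the ELK-type Kcnh8 at 2.91 and 6.31 CPM. Of 4 measured EAG, ERG and ELK genes 3 were higher and none lower, and of 3 BK genes 2 were higher and 1 (Kcnmb4) lower (all genes of the class 5.11% higher and 9.08% lower). The SK genes split, with Kcnn3 at 2.8 and 6.04 CPM (2.16) and Kcnn1 at 10.3 and 4.83 CPM (0.467). In these cells the radial glia markers summed to 692 and 409 CPM and the cycling genes to 1807 and 1368 CPM. In the 660 and 548 cells with no UMI of a cycling gene, 4 of 26 measured members were higher and 4 lower. Holding no such UMI also depends on the depth of a cell. The part of the cycling genes and that of the radial glia markers were not tested.

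Late neuroblasts, the class with the most UMIs, held 16 higher members of 55. Kcnd2, the A-type pore subunit that delays firing in dendrites, was the one of these above 20 CPM, at 11.0 and 22.8 CPM (ratio 2.07, 1.73 to 2.49). When the class was taken from clusters instead, with 743 control and 2838 Setdb1_cKO cells, the Kcnd2 ratio was 1.56 and the counts were 8 higher and 7 lower of 56. The other higher members, picked after their values were seen, spanned several families. Among inward rectifiers Kcnj2 was at 1.62 and 7.16 CPM (4.41, 2.86 to 7.07), the G-protein-gated Kcnj3 at 9.74 and 17.2 CPM (1.77, 1.45 to 2.16) and Kcnj6 at 2.86 and 6.09 CPM (2.13), while Kcnj9, of the same subfamily, was at 4.22 and 2.54 CPM (0.601, 0.402 to 0.893). Of the BK genes, Kcnmb2 was at 4.93 and 10.3 CPM (2.09, 1.59 to 2.77), while Kcnma1 stayed short of 1.5-fold at 40.9 and 60.5 CPM (1.48, 1.34 to 1.63). Kcnh1 was at 2.60 and 5.81 CPM (2.24), the leak-family Kcnk12 at 4.09 and 7.95 CPM (1.94) and the beta subunit Kcnab2 at 5.13 and 8.12 CPM (1.58).

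By family, 4 of 8 measured inward rectifier genes were higher in late neuroblasts, all 4 with an interval above 1, and 3 of 5 silent subunit genes, 1 of them with such an interval (all genes 7.64%, and 6.37% with the interval). Lower members of late neuroblasts above 20 CPM were Kcnq3 and Kcnn2 (39.3 and 25.2 CPM, 0.642, 0.566 to 0.726), the SK subunit that follows calcium entry. Below that level were Kcne1l (16.5 and 8.80 CPM, 0.533), Kcnip3 (3.25 and 1.07 CPM, 0.330, 0.184 to 0.570) and Kcnj9. Kcnip3 was thus lower in late neuroblasts and above 1 in radial glia, the early neuroblast gate lying between at 10.2 and 9.80 CPM. Its mean of 2.16 CPM in late neuroblasts lay under the 5.07 CPM of microglia, used above as a level for free RNA. The late neuroblast ratio of Kcnip3 therefore may not be one of these cells. Kcna1 (65.2 and 50.1 CPM, 0.769), Kcnk1 and Kcnk2 were lower by less than 1.5-fold, and Kcnb2 (80.2 and 84.1 CPM) and Kcnh7 (80.5 and 82.9 CPM) had intervals that include 1. The 13 neuron maturity genes summed to 2480 and 2504 CPM (ratio 1.01), so the class did not differ in that list by more than 1.1-fold. The clusters did differ. Of the control cells, 73.0% lay in cluster 0, named early neuroblasts by its markers, and 23.4% in cluster 12, named late neuroblasts. Of the Setdb1_cKO cells, 50.4% and 36.1% lay in clusters 2 and 4, named late neuroblasts, and 10.9% in cluster 3, named early neuroblasts. The part of this in the ratios was not tested. Immediate early and heat shock genes summed to 378 and 204 CPM and the radial glia markers to 257 and 158 CPM; their part was not tested.

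**Figure D4:**
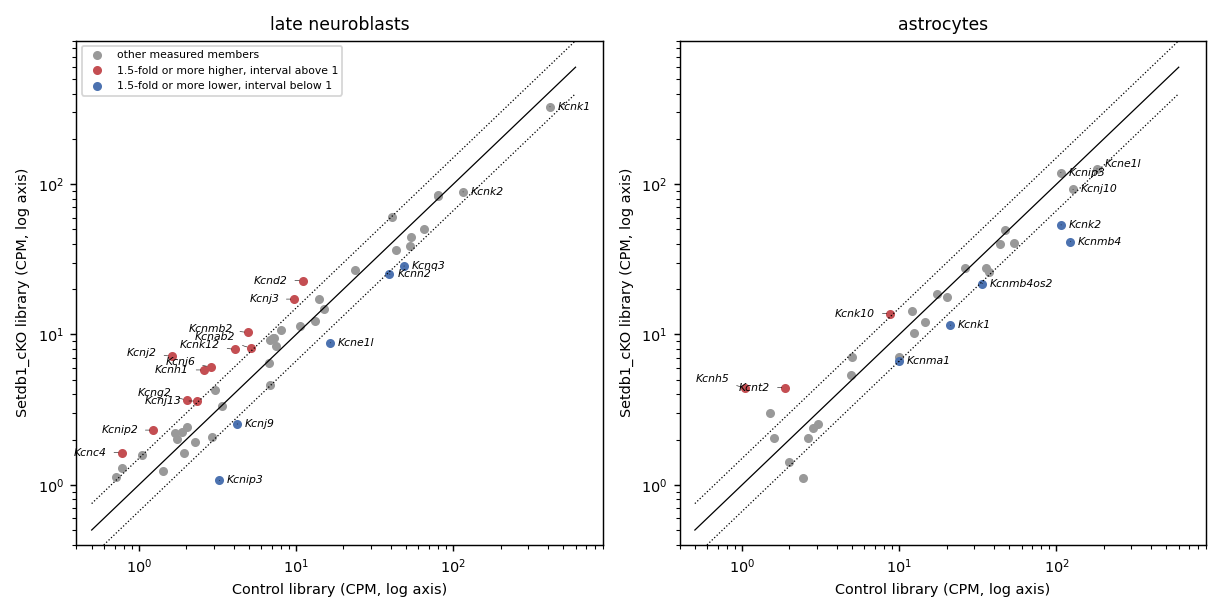
Level of measured potassium channel genes in the control library (x) against the Setdb1_cKO library (y), in CPM on log axes, for late neuroblasts (left) and astrocytes (right); the solid line marks equal levels and dotted lines 1.5-fold. Red points (higher, interval above 1) lie mostly under 20 CPM in late neuroblasts, while in astrocytes the blue points (lower) include Kcnmb4 and Kcnk2 above 100 CPM in control.

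Granule neurons numbered 16 in the control and 174 in the Setdb1_cKO library, so each ratio rests on few control UMIs. They are a gate by markers, and most of them lay in a cluster named late neuroblasts. Lower members of high level included Kcna1 (170 and 110 CPM, 0.648, 0.452 to 0.953), Kcnma1 (160 and 103 CPM, 0.644, 0.445 to 0.960), Kcnip4, an A-type partner (87.2 and 14.6 CPM, 0.168, 0.0906 to 0.320), and Kcnh7 (77.5 and 40.0 CPM, 0.516, 0.30 to 0.945). Kcng2, Kcnip1, Kcnj4 and Kcna2 were lower as well, at 34 to 63 CPM in control. Kcnk1, Kcnk2 and Kcnmb4 gave ratios of 0.978, 1.17 and 1.01 with intervals that include 1. Beside these, the granule neuron markers summed to 2621 and 1817 CPM (ratio 0.693), Calb1, a marker of mature granule cells, was at 949 and 244 CPM, and the neuron maturity list stood at 5266 and 3661 CPM (0.695); their part in the channel values was not tested. The stricter cell filter left 7 control cells, and Kcnh7 (1.44) and Kcnip1 (1.08) then turned to the other side of 1.

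In pyramidal or mossy neurons (168 and 490 cells) the lower members above 20 CPM were Kcnq3, Kcnc1, Kcnj6 and Kcnip2. Kcnc1, a subunit of fast-spiking neurons, was at 55.6 and 32.9 CPM (0.592, 0.491 to 0.716), Kcnj6, a G-protein-gated rectifier, at 31.5 and 18.3 CPM (0.580, 0.451 to 0.749) and Kcnip2 at 28.9 and 13.8 CPM (0.476, 0.362 to 0.628). Kcnj6 was thus lower here and higher in late neuroblasts. The leak subunit Kcnk10, which led in this class, was at 87.8 and 64.8 CPM (0.738). The silent subunits, which modify the Kv2 pore, included Kcng2 (18.6 and 8.09 CPM, 0.434) and Kcng1 (7.07 and 2.60 CPM, 0.367), chosen after their values were seen. The one higher member with an interval above 1 was Kcnmb2 (5.14 and 13.8 CPM, 2.68, 1.59 to 4.82), which was higher in the early neuroblast gate and late neuroblasts too. The cycling list summed to 104 and 30.7 CPM and the maturity list to 3983 and 3350 CPM in these cells, and their part was not tested.

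Other excitability genes, from lists of 18 channel partners, 14 sodium channel genes and 25 calcium channel genes, were counted in the same way. In late neuroblasts 0 of 8 measured sodium channel genes, 2 of 20 calcium channel genes and 2 of 14 partners were higher and none of the 3 lists had a lower gene (all genes 7.64% and 6.02%). In the early neuroblast gate 6 of 18 calcium channel genes were higher and none lower (all genes 5.11% and 9.08%), among them the alpha-2-delta subunit Cacna2d1 (29.1 and 54.9 CPM, 1.89) and the AMPA receptor partner Cacng2 (24.9 and 48.7 CPM, 1.96), and the A-type channel partner Dpp6 was at 8.84 and 27.8 CPM (3.14, 2.42 to 4.11). In pyramidal or mossy neurons 3 of 8 sodium channel genes were lower and none higher (all genes 10.4% and 7.15%), among them Scn8a at 65.9 and 37.6 CPM (0.571) and Scn9a at 30.2 and 15 CPM (0.495), while 0 of 19 calcium channel genes moved 1.5-fold either way. In astrocytes 3 of 9 partners were higher (all genes 6.47%), with the axonal clustering gene Cntnap2 at 29.0 and 47.6 CPM (1.64). Cntnap2 was at 99.9 and 171 CPM in radial glia (1.71) and at 47.4 and 20.1 CPM in the early neuroblast gate (0.425).

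Outside the 7 compared classes, a few members differed past 1.5-fold with an interval clear of 1, all seen before they were picked. Olig2 Egfr progenitors (248 and 198 cells) held Kcnmb4os2 at 55.5 and 32.3 CPM (0.582). They led for Kcnc1 at 97.5 and 71.8 CPM, but their intervals and those of GABAergic neurons did not lie apart in both libraries. Cajal-Retzius cells held Kcnk10 at 28.3 and 18.8 CPM (0.665), Kcnj6 at 7.85 and 3.47 CPM (0.442) and Kcnab2 at 2.51 and 8.1 CPM (3.23, 1.43 to 8.19). Kcnj6 was thus lower in Cajal-Retzius cells and in pyramidal or mossy neurons. Microglia held Kcnk12, a two-pore-domain gene, at 35.7 and 16.7 CPM (0.470, 0.269 to 0.807), and endothelial cells held Kcnq1 at 20.7 and 11.0 CPM (0.534, 0.294 to 0.920). GABAergic neurons, from 27 and 58 cells, held Kcnd3 at 37.7 and 72.5 CPM (1.92, 1.01 to 3.98). They led for the A-type partner Kcnip1 by point value (59.7 and 45.3 CPM), with granule neurons at 58.1 CPM in control. In oligodendrocyte progenitors Kcnq3 was the one member that differed in this way.

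The members not measured in any class numbered 23. Kcnk15, Kcnj1 and Kcnk16 had no UMI in kept cells, and others had a few, such as Kcna10 (0 and 3 UMIs), Kcna7 (2 and 1) and Kcne3 (2 and 2). Kcna3, a lymphocyte and microglia channel subunit, had 30 and 41 UMIs spread over classes. Another 9 members, Kcne4, Kcnt1, Kcna5, Kcnj8, Kcnk6, Kcnq1, Kcnj5, Kcnmb1 and Kcnk13, were measured only outside the 7 compared classes. By family, all 2 Kv2, 4 Kv3, 3 Kv4, 5 Kv7 and 3 sodium-activated and Slo3 genes were measured somewhere. Among the other families, 5 of 8 Kv1, 12 of 15 inward rectifier, 9 of 14 two-pore-domain and 6 of 10 silent subunit genes were. A gene below the limit was not detectable at this depth, which does not show that it is absent.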

How the data were processed

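Dissociated dentate gyrus cells were profiled with 10x 3′ v3 chemistry, per the labels' protocols. The deposited matrices hold raw UMI counts per gene and barcode, made by the authors with Cell Ranger 7.1.0 on mm10, per the submitters' processing notes; no source used here gives the intron or strand settings. Barcodes numbered 14397 and 12060, with 82393428 and 87845965 UMIs. Barcodes below 1000 UMIs or 500 genes, or above 10% mitochondrial UMIs, were dropped, and Scrublet (scanpy 1.11.5) marked 5.22% and 5.85% of scored barcodes as doublets, which were removed. Cells were gated by the multinomial likelihood of marker UMIs, at odds of at least 10 with at least 3 markers detected. UMIs were summed per class and library; ratios have exact conditional Poisson intervals (scipy 1.17.1) and were tested on simulated data. UMI intervals and Clopper-Pearson shares cover counting error only. No test between genotypes was possible. Genes named: those of at least 20 CPM past 1.5-fold with an interval that excludes 1 (up to 6 per class and direction), members past 1.5-fold in at least 4 classes, the 2 members at 50 CPM or more that stand highest over any other class, for each class, and Setdb1; members named beyond this rule were picked after their values were seen. The members, markers, gate settings and lists were chosen with earlier results of these data known. All 96 members matched GENCODE vM21 by identifier. Results for a few genes are not reported here, though counts include them.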

Additional observations from a re-analysis of the deposited data

How the results depend on the processing

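No paired analysis was possible because each genotype has 1 library. Of 243 alternative values of 35 gene and class ratios, 232 stayed within the counting interval of the reported ratio, 9 moved and 2 crossed to the other side of 1, Kcnh7 (1.44) and Kcnip1 (1.08) in granule neurons with the stricter cell filter. The counts of members past 1.5-fold followed the UMI limit. The shares over all genes given earlier belong to the reported counts and do not apply to the counts at other settings listed next. At 5 UMIs, higher and lower members numbered 16 and 16 in radial glia, 15 and 16 in astrocytes, 14 and 10 in intermediate progenitors, 20 and 8 in the early neuroblast gate and 9 and 21 in granule neurons, with 7 higher in pyramidal or mossy neurons. At 100 UMIs they numbered 1 and 5 in radial glia, 0 and 3 in intermediate progenitors, 0 and 3 in granule neurons and 1 and 6 in pyramidal or mossy neurons, with 1 higher in astrocytes, 1 in the early neuroblast gate and 9 in late neuroblasts. With the looser cell filter 1 was higher in intermediate progenitors and 1 in pyramidal or mossy neurons; with the stricter one, 3 higher and 4 lower in radial glia and 5 and 7 in granule neurons. Clusters gave 4 lower in radial glia, 12 lower in the early neuroblast gate and 8 higher in late neuroblasts, and no granule neuron class. Median scaling gave 5 higher in pyramidal or mossy neurons. Subsets of cells were added after the data were seen: astrocytes without oligodendrocyte progenitor marker UMIs gave 2 higher, and cells without cycling marker UMIs gave 0 higher and 5 lower in radial glia and 4 higher in the early neuroblast gate. Doublets kept, a wider gate margin (odds of 1000) and cells without shared barcodes moved none of the 14 counts by over 1.5-fold. The cause of these shifts was not tested. Every granule neuron ratio rests on 16 control cells, which limits its precision.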
